A study of Mus musculus with 12 samples.

Results

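The D cyclins and CDK inhibitors are a group of 10 genes that govern the G1 phase of the cell cycle: Ccnd1, Ccnd2, Ccnd3, Cdk4, Cdk6, Cdkn1a, Cdkn1b, Cdkn1c, Cdkn2c and Mdm2. They were taken by name, as probe sets with exactly 1 gene symbol equal to a member. Each of the 10 genes had 1 such probe set, and all 10 passed the filter on low signal, so they stand among 17467 genes tested. Affymetrix arrays measured total RNA of primary neuronal cultures, made from embryonic brain of ICR (CD-1) mice. The study asked what antidepressants do over 48 h, and set 6 groups of 2 arrays (12 arrays) beside each other: control, amitriptyline (5 µM), citalopram (10 µM), duloxetine (0.1 µM), imipramine (5 µM) and mirtazapine (50 µM). Drugs were added at day in vitro 3 and the cells harvested at day in vitro 5. All groups shared Neurobasal medium with B27, L-glutamine and antibiotics. Amitriptyline and imipramine are tricyclics, citalopram is a selective serotonin reuptake inhibitor, duloxetine blocks serotonin and noradrenaline uptake, and mirtazapine is a tetracyclic receptor antagonist. Each drug was used at a single dose, and no label states a vehicle for the control. Nothing in the labels ties the 2 arrays of a group to different cultures or litters, and the p-values therefore rest on a spread between samples that may be technical.

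Cells in G1 divide again or leave the cycle according to the balance between these proteins. D cyclins bind the kinases CDK4 and CDK6, which phosphorylate the retinoblastoma protein and so release E2F transcription factors for entry into S phase. The INK4 protein encoded by Cdkn2c (p18) binds CDK4 and CDK6 directly, while the CIP/KIP proteins encoded by Cdkn1a (p21), Cdkn1b (p27) and Cdkn1c (p57) bind cyclin-CDK complexes. Cdkn1a and Mdm2 are both targets of p53, and MDM2 in turn drives p53 to degradation. In embryonic brain cultures the dividing cells are mainly progenitors, while neurons have left the cycle and often keep Cdkn1b and Cdkn1c.

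The start sites of the members were looked up in RefSeq (GRCm38.p6), which gave 10 promoter windows for 7 members; Ccnd1, Ccnd2 and Cdkn1c were not matched. The 250 bases before the start site were searched on both strands for the E-box (CACGTG), the cAMP response element (TGACGTCA), AP-1 (TGANTCA), the C/EBP-ATF element (TGATGNAA), an E2F element (TTTNGCGC) and the p53 half-site. These motifs do not overlap each other in the windows, and the p53 half-site was added to the search after the data were examined. The E-box was in 2 of the 10 windows, those of Cdk4 and Cdk6, and in 6.02% of all 32851 promoters. The p53 half-site was in 2 windows, one of Cdkn1a and that of Mdm2, and in 7.13% of all promoters. The other motifs had 0 matches in the 10 windows, and stood in 1.55% (cAMP response element), 6.75% (AP-1), 3.45% (C/EBP-ATF) and 1.13% (E2F) of all promoters. A match is a run of letters, and nothing was measured here on whether a factor binds it. Shown first is Cdkn2c, the member with the largest differences (chr4:109666757-109667006, minus strand), then the upstream window of Cdkn1a, which comes next by p (chr17:29090729-29090978, plus strand). The last is Cdk4, the kinase that both inhibitors act on (chr10:127063285-127063534, plus strand). Capitals mark the p53 half-sites in Cdkn1a and the E-boxes in Cdk4, and Cdkn2c has no capitals because none of the 6 motifs matched.
Cdkn2c: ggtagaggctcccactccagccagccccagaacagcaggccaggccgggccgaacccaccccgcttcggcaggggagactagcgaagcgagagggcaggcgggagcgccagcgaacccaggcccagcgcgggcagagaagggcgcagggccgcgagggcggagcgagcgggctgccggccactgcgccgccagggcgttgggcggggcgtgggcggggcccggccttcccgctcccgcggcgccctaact
Cdkn1a: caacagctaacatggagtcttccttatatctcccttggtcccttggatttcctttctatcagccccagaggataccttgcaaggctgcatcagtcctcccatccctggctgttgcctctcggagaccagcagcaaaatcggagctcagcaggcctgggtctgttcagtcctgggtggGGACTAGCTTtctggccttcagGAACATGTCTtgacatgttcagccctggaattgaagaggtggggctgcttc
Cdk4: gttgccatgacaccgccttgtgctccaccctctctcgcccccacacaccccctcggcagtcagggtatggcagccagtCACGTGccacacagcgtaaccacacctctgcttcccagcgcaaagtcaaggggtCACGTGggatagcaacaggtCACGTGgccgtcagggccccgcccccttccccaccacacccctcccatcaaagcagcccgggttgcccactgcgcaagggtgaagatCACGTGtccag
The Cdkn2c window shown was 77.2% G and C and held 29 CpG dinucleotides, against a median of 52.4% and 6 over all promoters. A second Cdkn2c window, at another start site, was 42.8% G and C and held 6 CpG dinucleotides and no match. The upstream Cdkn1a window held 2 CpG dinucleotides, and the half-site nearest to the start site lay 51 to 42 bases before it. A second Cdkn1a window, at a downstream start site, held 19 CpG dinucleotides and no match. Cdk4 held 4 copies of the E-box within the 250 bases, the nearest 11 to 6 bases before the start.

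None of the 10 members was called against control under any drug (limma, adjusted p under 0.05 over 17467 genes). Over all genes the share called was 0% under amitriptyline, citalopram and duloxetine, 0.0286% under imipramine and 1.74% under mirtazapine. They were 0.0515% for the mean of the 5 drugs, 0.103% in an F test over the 6 groups and 0.0115% in an F test over the 5 drugs, with 0 members in each. At an unadjusted p under 0.05, members numbered 1 under amitriptyline (6.14% of all genes), 1 under citalopram (4.44%), 0 under duloxetine (10%), 0 under imipramine (4.56%) and 4 under mirtazapine (22.4%). They numbered 1 for the mean of the drugs (8.93%), 2 in the F test over the 6 groups (10.8%) and 1 in that over the 5 drugs (9.76%). The 4 under mirtazapine were Cdkn2c, Cdkn1a, Cdk6 and Ccnd2. Members with both arrays above both control arrays numbered 2 under amitriptyline (14.1% of all genes), 2 under citalopram (17%), 0 under duloxetine (15.5%), 2 under imipramine (14.3%) and 1 under mirtazapine (22.6%). Those with both arrays below both controls numbered 3 (24.2%), 3 (22.1%), 1 (18.3%), 1 (19.1%) and 6 (30.6%) in the same order. Apart from the 6 under mirtazapine, these counts lie near the shares over all genes, and whether 6 of 10 departs from 30.6% was not tested. The 6 include Cdkn1b and Cdkn1c, whose differences of −0.245 and −0.11 were −0.115 and −0.035 without duloxetine replicate 2 and mirtazapine replicate 2. The median difference of the members from control was −0.0825 log2 units under amitriptyline, −0.035 under citalopram, −0.0625 under duloxetine, −0.01 under imipramine and −0.125 under mirtazapine. The medians over all genes were −0.02, −0.005, −0.015, −0.005 and −0.035 in the same order. All values below are log2 levels, or differences of log2 levels, on the authors' RMA scale, and levels of different probe sets cannot be compared. All 5 comparisons with control share the same 2 control arrays and 1 pooled spread. The residual SD over all genes was 0.174 for duloxetine and 0.146 for mirtazapine, against 0.066 (citalopram) to 0.090 (control) elsewhere. Equal standard errors therefore do not mean equal precision, and intervals for duloxetine and mirtazapine may be too narrow.

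Duloxetine replicate 2 and mirtazapine replicate 2 stand apart from the other arrays. Their upper quartiles over all probe sets were 8.21 and 8.2, against 8.31 to 8.37 on the other 10, and their lower quartiles were 5.5 and 5.57, against 5.37 to 5.5. Values without these 2 arrays accompany the main results on duloxetine and mirtazapine; each of these groups is then 1 array, assumed to vary like the arrays of the other groups. The label of the cells was checked against marker genes: all 12 neuron markers passed the filter, and their mean level per array lay between 10.97 and 11.23. Markers of astrocytes (8 of 8), microglia (9 of 9) and oligodendrocyte lineage cells (8 of 9) passed too, but the filter keeps most genes and passing it does not show that a gene was detected above background.

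**Figure D1:**
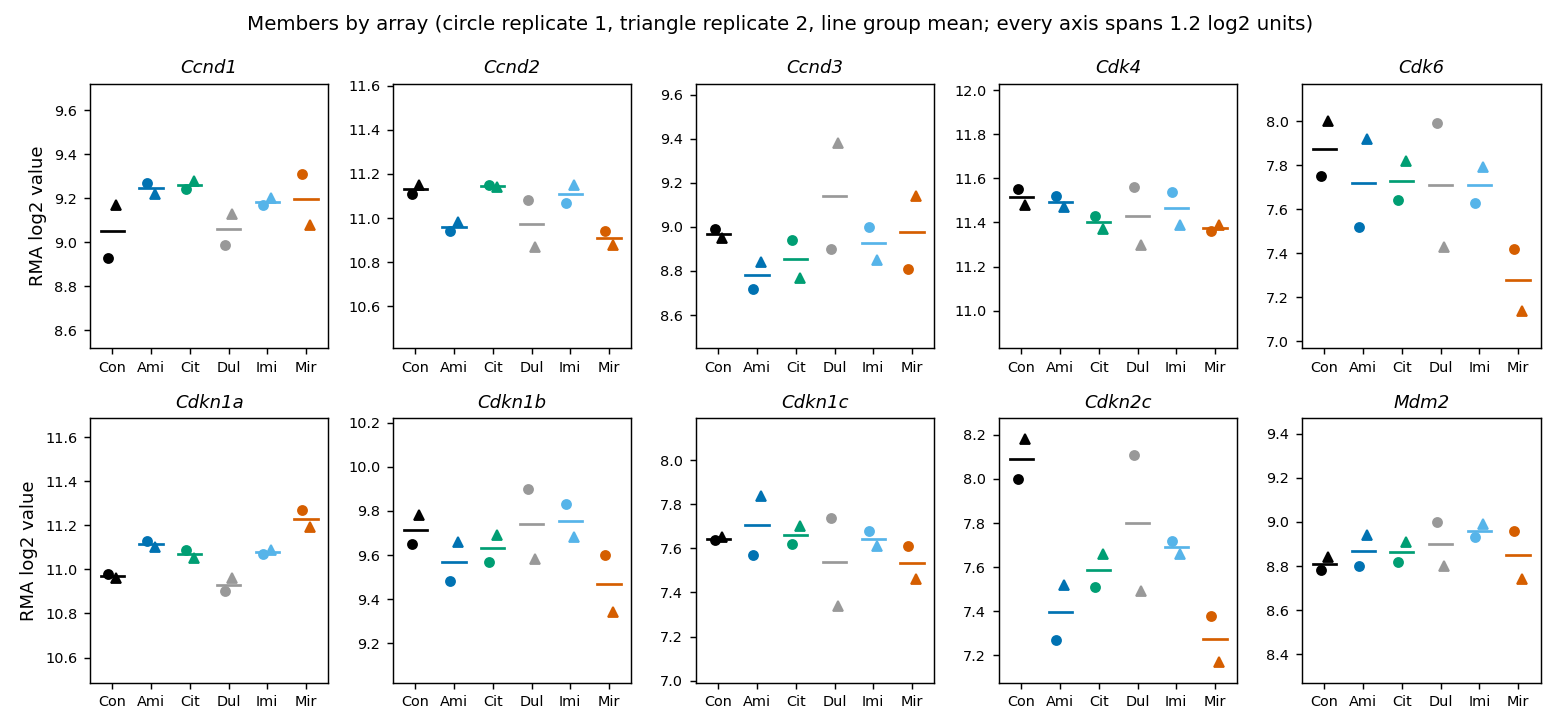
RMA log2 level of each of the 10 members on the 12 arrays, by group (Con, control; Ami, amitriptyline; Cit, citalopram; Dul, duloxetine; Imi, imipramine; Mir, mirtazapine). Circles are replicate 1, triangles replicate 2 and lines the mean of 2 arrays; Cdkn2c is lower on all 8 arrays of amitriptyline, citalopram, imipramine and mirtazapine than on both control arrays, and Cdkn1a is higher on the same 8.

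Cdkn2c, the INK4 inhibitor p18, had the widest spread of the 10 members, 1.01 log2 units between its lowest and its highest array. Its level was 8 and 8.18 on control replicates 1 and 2. With amitriptyline it was 7.27 and 7.52, with citalopram 7.51 and 7.66, with imipramine 7.72 and 7.66, and with mirtazapine 7.38 and 7.17. The duloxetine arrays split, at 8.11 (replicate 1) and 7.49 (replicate 2). The 8 arrays of the other 4 drugs thus lay below both control arrays, a pattern that 7.56% of all genes showed, and duloxetine replicate 1 lay between the controls. In culture RNA, fewer cells of a type and less RNA per cell cannot be told apart. From highest to lowest mean the groups ran control, duloxetine, imipramine, citalopram, amitriptyline, mirtazapine.

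The Cdkn2c difference from control was −0.815 ± 0.18 (SE) under mirtazapine, 1.76-fold lower (95% interval −1.22 to −0.41, limma adjusted p = 0.058). Under amitriptyline it was −0.695 (−1.10 to −0.29, 1.62-fold lower, adjusted p = 0.252). Under citalopram it was −0.505 (−0.91 to −0.10, adjusted p = 0.896), and under imipramine −0.40 (−0.81 to 0.01, adjusted p = 1). The 95% interval of a single gene thus lay wholly below 0 for 3 drugs, while none of the differences passed over all genes. Under duloxetine the difference was −0.29 (−0.70 to 0.12, adjusted p = 0.547), and it was 0.02 without both arrays that stand apart (adjusted p = 0.978). Without duloxetine replicate 1 it was −0.60 and passed (adjusted p = 0.0354), with 11.7% of all genes called; this sets 1 array, which stands apart, against control, with its spread taken wholly from the other groups. Without those arrays Cdkn2c was called under mirtazapine (−0.71, adjusted p = 0.0363, with 2.12% of all genes called) and under amitriptyline (−0.695, adjusted p = 0.0305, with 1.31% called). With array weights it was called under amitriptyline as well (adjusted p = 0.0303, with 1.27% of all genes called). Of 22 alternative settings, Cdkn2c passed under mirtazapine in 6. Leaving out duloxetine replicate 1 or replicate 2 gives the same values here, so these 2 of the 6 are not separate. With all 12 arrays kept, it passed only with a 50th percentile filter (limma adjusted p = 0.0431) and with a trended, robust variance (0.0417). Without mirtazapine replicate 2 the difference was −0.71 and did not pass. Over all genes 7.6% were called without either duloxetine array, and 8.3% without mirtazapine replicate 1, where Cdkn2c passed too (adjusted p = 0.0441), with mirtazapine again down to the 1 array that stands apart. For the mean of the 5 drugs the difference was −0.541 (−0.86 to −0.22, adjusted p = 0.194).

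**Figure D2:**
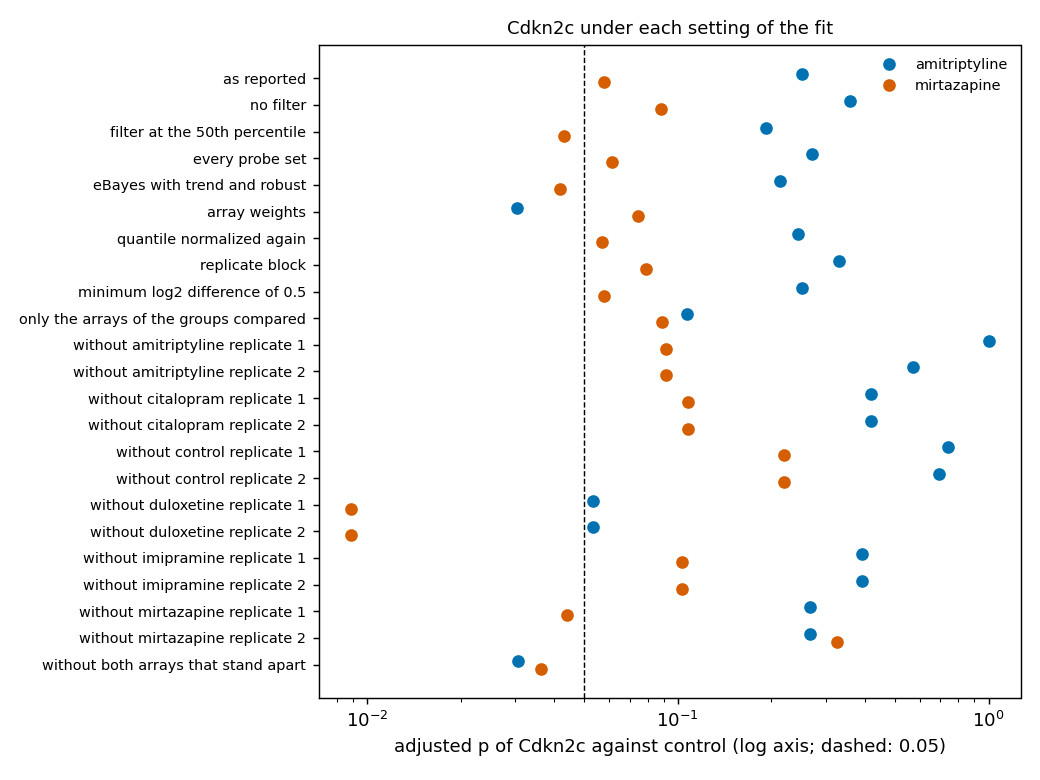
Benjamini-Hochberg adjusted p of Cdkn2c against control (x axis, log scale) under each setting of the fit (y axis), for amitriptyline and mirtazapine; the dashed line is 0.05. Under mirtazapine 6 of 22 alternatives lie left of the line and the reported value lies just right of it, at 0.058. Under amitriptyline 2 of 22 lie left of it. Leaving out replicate 1 or replicate 2 of a drug not compared gives the same value, so the alternatives are not all separate.

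Among the CIP/KIP inhibitors, Cdkn1a (p21) had the smallest spread between the arrays of a group. It lay at 10.98 and 10.96 on the control arrays and at 10.9 and 10.96 on the duloxetine arrays. It was 11.13 and 11.1 with amitriptyline, 11.09 and 11.05 with citalopram, 11.07 and 11.09 with imipramine, and 11.27 and 11.19 with mirtazapine. The 8 arrays of these 4 drugs were all above both control arrays, which held for 2.79% of all genes. The differences were small. Under mirtazapine it was 0.26 ± 0.08 (SE), 1.2-fold higher (95% interval 0.08 to 0.44, limma adjusted p = 0.121), and 0.30 without the arrays that stand apart (adjusted p = 0.1). Under amitriptyline, imipramine and citalopram it was 0.145, 0.11 and 0.10 (adjusted p = 0.981, 1 and 1), and under duloxetine −0.04 (adjusted p = 0.84). With a trended and robust variance estimate Cdkn1a and Cdkn2c were called under mirtazapine (adjusted p = 0.0499 and 0.0417), beside 2.52% of all genes.

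Cdkn1b and Cdkn1c, the inhibitors p27 and p57 that mark cells leaving the cycle, showed no called difference. Cdkn1b read 9.65 and 9.78 in control, 9.48 and 9.66 with amitriptyline, 9.57 and 9.69 with citalopram, 9.9 and 9.58 with duloxetine, 9.83 and 9.68 with imipramine, and 9.6 and 9.34 with mirtazapine. Only the mirtazapine arrays lay below both controls, with a difference of −0.245 (95% interval −0.55 to 0.06, adjusted p = 0.292) that became −0.115 without the arrays that stand apart. Cdkn1c read 7.64 and 7.65 in control and between 7.34 (duloxetine replicate 2) and 7.84 (amitriptyline replicate 2) on the drug arrays. Its differences from control ran from −0.11 (mirtazapine) to 0.06 (amitriptyline), and the drug arrays overlapped the controls except those of mirtazapine, at 7.61 and 7.46. Without the arrays that stand apart its mirtazapine difference was −0.035 and its duloxetine difference turned from −0.105 to 0.095.

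The 3 D cyclins did not move together. Ccnd1, the D cyclin induced by growth factor signals, was lowest on control replicate 1 (8.93) and read 9.17 on control replicate 2. It was 9.27 and 9.22 with amitriptyline, 9.24 and 9.28 with citalopram, 9.17 and 9.2 with imipramine, 9.31 and 9.08 with mirtazapine, and 8.99 and 9.13 with duloxetine. Citalopram and amitriptyline lay above both controls, but the 2 controls were 0.24 apart, more than the group difference of 0.21 (citalopram, 95% interval −0.04 to 0.46) or 0.195 (amitriptyline, −0.05 to 0.44). The adjusted p was 1 and 0.996.

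Ccnd2, the D cyclin abundant in embryonic cortical progenitors, was steadier: 11.11 and 11.15 in control, 11.15 and 11.14 with citalopram, and 11.07 and 11.15 with imipramine. It read 10.94 and 10.98 with amitriptyline, 10.94 and 10.88 with mirtazapine, and 11.08 and 10.87 with duloxetine. These 3 groups lay below both controls, by −0.17, −0.22 and −0.155, and none passed (adjusted p = 0.978, 0.203 and 0.54). Without the arrays that stand apart the difference was −0.19 under mirtazapine and −0.05 under duloxetine. Under citalopram the difference from control was 0.015 (95% interval −0.19 to 0.22). Compared directly, citalopram minus mirtazapine was 0.235 (95% interval 0.03 to 0.44), which did not pass (limma adjusted p = 0.482).

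Ccnd3, the third D cyclin, had its highest values on the 2 arrays that stand apart, 9.38 (duloxetine replicate 2) and 9.14 (mirtazapine replicate 2). The control arrays read 8.99 and 8.95, duloxetine replicate 1 read 8.9 and mirtazapine replicate 1 read 8.81. The difference from control was 0.17 under duloxetine and 0.005 under mirtazapine, and without both arrays it was −0.07 and −0.16, so its direction rests on them. It was −0.19 under amitriptyline (8.72 and 8.84), −0.115 under citalopram (8.94 and 8.77) and −0.045 under imipramine (9 and 8.85), with adjusted p between 0.996 and 1.

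Of the kinases, Cdk6 differed most from control. Its level was 7.75 and 8 in control and 7.42 and 7.14 with mirtazapine, a difference of −0.595 ± 0.2 (SE), 1.51-fold lower (95% interval −1.04 to −0.15, limma adjusted p = 0.143). Without the arrays that stand apart this was −0.455 (adjusted p = 0.22). The other groups overlapped the controls, with 7.52 and 7.92 (amitriptyline), 7.64 and 7.82 (citalopram), 7.99 and 7.43 (duloxetine) and 7.63 and 7.79 (imipramine), and their differences lay between −0.165 and −0.145. Cdk4, the partner kinase shown above with 4 E-boxes, was among the steadiest members. It read between 11.3 (duloxetine replicate 2) and 11.56 (duloxetine replicate 1) over all 12 arrays, and its largest difference from control was −0.14 under mirtazapine (95% interval −0.37 to 0.09, adjusted p = 0.406).

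**Figure D3:**
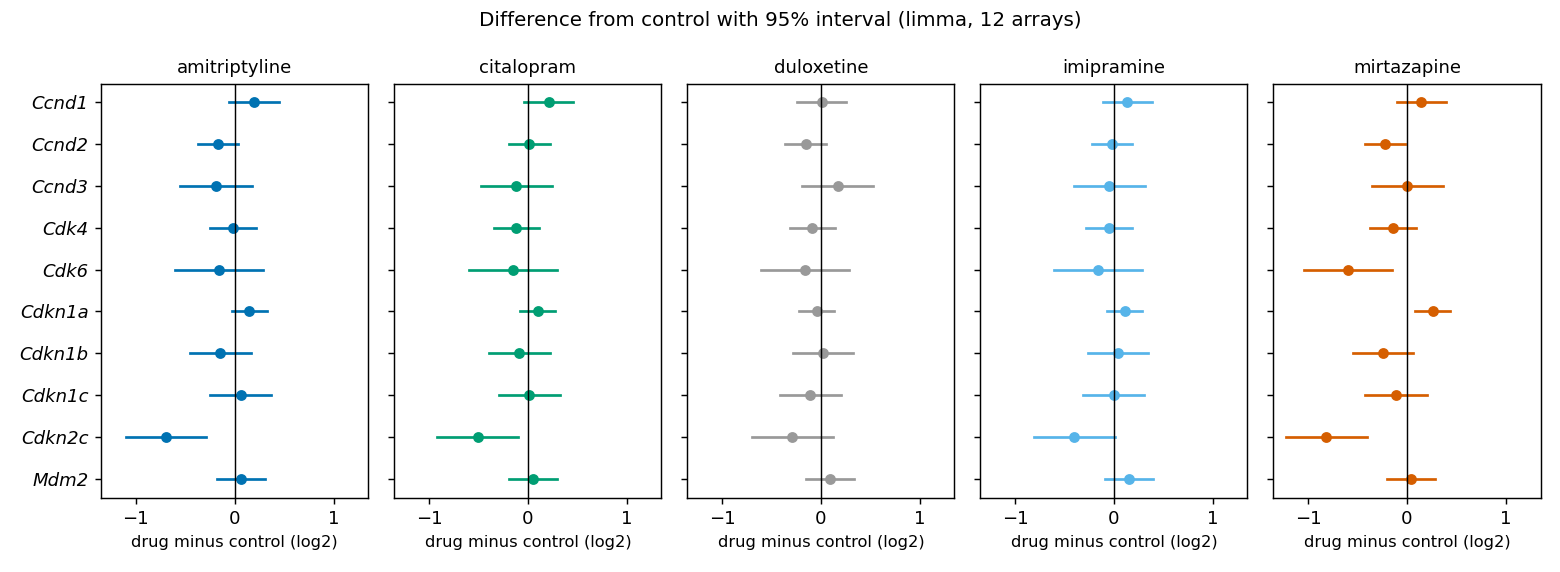
Difference of each drug from control (x axis, log2 units) for the 10 members, with 95% intervals from limma over all 12 arrays. The points of Cdkn2c lie left of 0 under all 5 drugs, from −0.815 (mirtazapine) to −0.29 (duloxetine), and most other intervals include 0.

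Mdm2, which encodes the ubiquitin ligase of p53, stayed within 0.26 log2 units over all arrays, from 8.74 (mirtazapine replicate 2) to 9 (duloxetine replicate 1). The control arrays read 8.78 and 8.84. Only imipramine lay wholly above them, at 8.93 and 8.99, a difference of 0.15 (95% interval −0.09 to 0.39, adjusted p = 1). Of 23 other p53 genes and targets tested, none was called under any drug in the fit of all arrays. Calls under duloxetine (without its replicate 1) and under mirtazapine (without control replicate 2) came only from fits that leave a group of 1 array. The p53 genes of lowest p follow. Btg2, an antiproliferative gene of newly forming neurons, was at −0.48 under amitriptyline (adjusted p = 0.327) and −0.475 under imipramine (adjusted p = 0.466). Sesn2, a stress-induced sestrin, was at 0.555 under mirtazapine (adjusted p = 0.121) and 0.49 under citalopram (adjusted p = 0.833). The death receptor gene Tnfrsf10b was at 0.365 under imipramine (adjusted p = 0.653) and 0.305 under amitriptyline (adjusted p = 0.702). Under duloxetine the lowest p-values were those of Bbc3 (−0.295) and Btg2 (−0.365), both at an adjusted p of 0.492, and under mirtazapine Plk2 (−0.24, adjusted p = 0.182) came second. The median of the 23 genes was between −0.125 (mirtazapine) and 0.005 (imipramine). Trp53, Gadd45a, Bax, Fas and Ddb2 are not analysed here.

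Genes downstream of the D cyclin kinases gave the only calls among the 3 pathway lists in the fit of all arrays. Of 24 RB, E2F and G1-S genes tested, 2 fell under mirtazapine, where 1.74% of all genes were called, and 0 were called under each other drug. E2f8, an E2F factor expressed in dividing cells, fell from a mean log2 of 7.51 to 6.72 (difference −0.79 ± 0.13 SE, limma adjusted p = 0.021). Ccna2, the S phase cyclin, fell from 9.445 to 8.565 (−0.88 ± 0.16, adjusted p = 0.0282). Without the arrays that stand apart the differences were −0.80 (E2f8, adjusted p = 0.0397) and −0.845 (Ccna2, adjusted p = 0.0226). The same genes were at −0.665 and −0.855 under amitriptyline, −0.63 and −0.665 under citalopram, and −0.575 and −0.705 under imipramine, without passing (adjusted p between 0.104 and 0.47). Under duloxetine the genes of lowest p were Cks1b (0.285) and Cdk2 (−0.295), with adjusted p of 0.492 and 0.502. The list had 22 of 24 negative differences under mirtazapine (median −0.1975), 20 of 24 with amitriptyline (−0.105), 19 with citalopram (−0.115), 17 with imipramine (−0.1025) and 16 with duloxetine (−0.1025). Over all genes, 55.1%, 56.7%, 50.8%, 52.1% and 52.3% of differences were negative in that order. The 2 calls under mirtazapine were lost with only the arrays compared, and without either citalopram array, either control array or mirtazapine replicate 2. With array weights 1 remained. Without either duloxetine array the count rose, as did the calls over all genes. With array weights it was 2 under amitriptyline, where 1.27% of all genes were called. With the same weights it was 1 under imipramine, where 128 of 17467 genes were called. It was 2 under citalopram, where at most 76 genes were called in any alternative. Fits that leave a group of 1 array also gave calls under amitriptyline, duloxetine and imipramine, and calls over all genes rose there too. Ccne2 is not analysed here.

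The other INK4 inhibitors and the cyclin G genes, 5 in all, had no call in the fit of all arrays. Calls under duloxetine without its replicate 1 set 1 array, which stands apart, against control, and calls over all genes rose there too. The INK4 gene Cdkn2d was at −0.305 under mirtazapine (95% interval −0.51 to −0.10, adjusted p = 0.114), and it was at −0.13 with amitriptyline, −0.18 with citalopram and −0.155 with imipramine. Cdkn2b and Cdkn2a, which share a locus, were at 0.505 and 0.38 under duloxetine (adjusted p = 0.492 for both), and at 0.26 and 0.235 without the arrays that stand apart (adjusted p = 0.74 for both). Under mirtazapine Cdkn2b was at 0.37 (95% interval 0.04 to 0.70, adjusted p = 0.194) and Cdkn2a at 0.305 (adjusted p = 0.184). Cdkn2b was at 0.15 under amitriptyline, 0.30 under citalopram and 0.23 under imipramine. The cyclin G gene Ccng2 was at −0.30 under mirtazapine (95% interval −0.605 to 0.0047, adjusted p = 0.227) and between −0.175 (amitriptyline) and −0.125 (imipramine) under the other drugs. Ccng1, which the p53 list also holds, was between −0.175 (mirtazapine) and 0.05 (duloxetine).

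**Figure D4:**
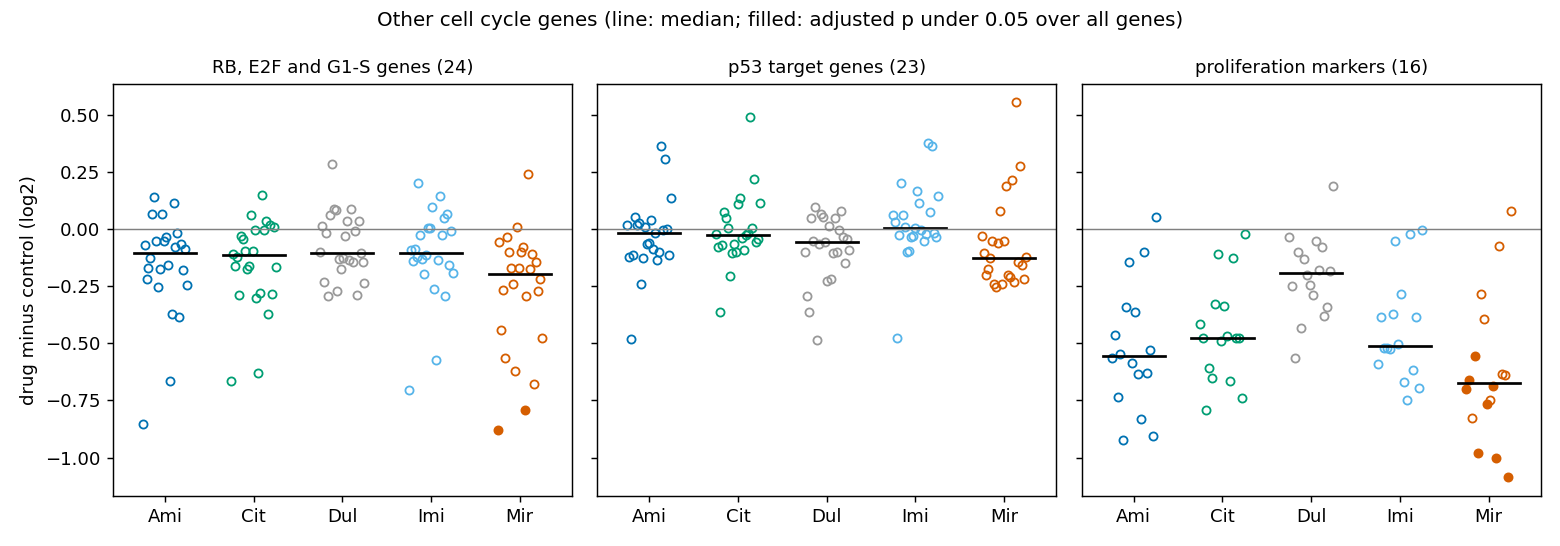
Difference from control (y axis, log2 units) of each tested gene of 3 lists, by drug (Ami, amitriptyline; Cit, citalopram; Dul, duloxetine; Imi, imipramine; Mir, mirtazapine); lines are list medians and filled points passed an adjusted p of 0.05 over all genes. The filled points are 2 RB, E2F and G1-S genes and 8 proliferation markers under mirtazapine, and the p53 list has none.

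Proliferation markers moved with Cdkn2c across the arrays. Under each of amitriptyline, citalopram, imipramine and mirtazapine, 14 of the 16 tested lay below both controls on both arrays, and 8 under duloxetine. The shares over all genes were 24.2%, 22.1%, 19.1%, 30.6% and 18.3% in that order. Medians of the markers were −0.555, −0.475, −0.5125, −0.6725 and −0.1925. In the fit of all arrays 8 were called under mirtazapine, each lower, Top2a (−1.085, adjusted p = 0.0182) and Mki67 (−0.685, adjusted p = 0.049) among them. There 1.74% of all genes were called, and 0 markers were called under each other drug. The count under mirtazapine was 0 without control replicate 1, without mirtazapine replicate 2 or from the 4 arrays compared alone, and 12 without either duloxetine array. Without control replicate 1, 0 genes of all those tested were called under mirtazapine, so the other marker calls given here end there too. Without both arrays that stand apart, which leaves 1 mirtazapine array, Mki67 (−0.58), Birc5 (−0.545) and the oligodendrocyte marker Olig1 (−0.815) did not pass. Other proliferation markers passed there instead, so their number under mirtazapine did not fall. Proliferation markers were also called there under amitriptyline and imipramine, and calls over all genes rose under both. The mean level of the 16 markers was 8.295 and 8.21 on the control arrays and 8.205 on duloxetine replicate 1. On the other 9 arrays it lay between 7.58 (mirtazapine replicate 2) and 7.90 (imipramine replicate 2), with duloxetine replicate 2 at 7.89. The 3 arrays with high markers were also the 3 with Cdkn2c at 8 or above. Radial glia and progenitor markers (15 tested) had a mean of 9.64 and 9.65 in control and 9.66 on duloxetine replicate 1, and 9.36 to 9.56 elsewhere. Hes5 fell in this list under mirtazapine (−1.145, adjusted p = 0.00681). The mean of 8 astrocyte markers was 9.13 and 9.25 in control, 9.255 and 9.17 with duloxetine, and 8.67 to 9.01 with the other drugs, and Gfap and Aqp4 fell under mirtazapine. The mean of 8 oligodendrocyte lineage markers was 8.05 and 8.49 in control, 8.51 and 8.59 with duloxetine, and 7.70 to 7.95 with the other drugs, and Olig1 fell under mirtazapine (−0.83, adjusted p = 0.0223). Microglia markers (9) lay between 7.06 and 7.38 on all arrays, endothelial markers (6) between 6.43 and 6.81, and fibroblast and mural markers (7) between 7.23 and 7.66. Of these 3 lists, Dcn alone was called in the fit of all arrays, and it fell under mirtazapine (−1.61, adjusted p = 0.0115). The rest of its list did not all follow: 4 of 7 differences there were positive and 3 negative, with a median of 0.31. Microglia markers under mirtazapine had 6 positive and 3 negative differences (median 0.215). Some other settings called further genes of these lists. Neuron markers had no call in the fit of all arrays and up to 2 under mirtazapine in other settings, with a list mean of 11.1 and 11.23 in control and 10.97 to 11.21 with drugs, lowest on mirtazapine replicate 2. The part of cell makeup in the values of Cdkn2c and Cdk6 was not tested.

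**Figure D5:**
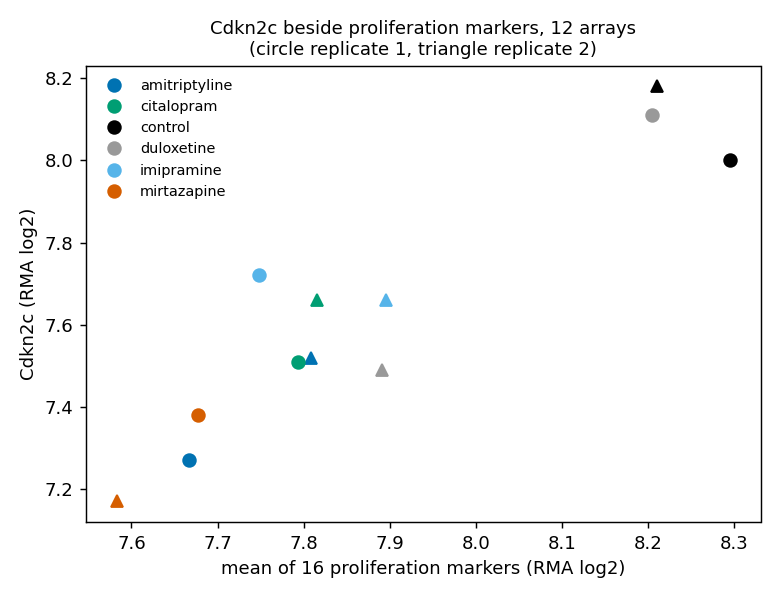
Level of Cdkn2c (y axis, RMA log2) against the mean of 16 proliferation markers (x axis, RMA log2) on the 12 arrays, coloured by group; circles are replicate 1 and triangles replicate 2. Both control arrays and duloxetine replicate 1 lie at the upper right, with Cdkn2c between 8 and 8.18, and the other 9 arrays lie lower on both axes.

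No member was called between any 2 drugs in the 10 pairs compared, where calls over all genes ran from 0% (6 pairs) to 0.475% (duloxetine against mirtazapine). Amitriptyline and imipramine, tricyclics that differ in their ring system, were the only pair at a matched dose. Between them Cdkn2c differed by −0.295 (amitriptyline minus imipramine, 95% interval −0.70 to 0.11), Ccnd2 by −0.15 (−0.36 to 0.06) and Cdkn1a by 0.035 (−0.14 to 0.21), all at an adjusted p of 1. These intervals allow differences of the size seen against control. In the other pairs drug and dose differ together. The lowest p of a member was that of Cdkn1a for duloxetine against mirtazapine (−0.30, 95% interval −0.48 to −0.12, adjusted p = 0.163), followed there by Cdkn2c (0.525, 0.12 to 0.93, adjusted p = 0.296). Without the arrays that stand apart these were −0.37 (adjusted p = 0.125) and 0.73 (adjusted p = 0.0885). Calls over all genes stood at 0.0115% for amitriptyline or citalopram against duloxetine and at 0.12% for duloxetine against imipramine. At an unadjusted p under 0.05, members numbered 2 for duloxetine against mirtazapine (11.4% of all genes), 2 for citalopram against mirtazapine (10.2%), 1 for amitriptyline against duloxetine (11.8%) and 1 for imipramine against mirtazapine (17.7%). They numbered 0 for amitriptyline against mirtazapine (10.1%), citalopram (1.31%) and imipramine (1.21%), for citalopram against duloxetine (6.74%) and imipramine (1.08%), and for duloxetine against imipramine (12.7%).

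The genes with the profiles most like those of the 3 members of lowest p in the F test were found by the root mean square distance between log2 profiles over the 12 arrays, each centred on its own mean. Nearest to Cdkn2c were Asrgl1, an asparaginase (distance 0.101), the histone gene H2bc12 (0.104) and Anln, encoding the cytokinesis protein anillin (0.107), against a median of 0.307 to all genes. Nearest to Cdkn1a were Tspyl2 (0.0417), the GTP-binding protein gene Gtpbp2 (0.0443) and the RNA helicase gene Ddx17 (0.0465; median to all genes 0.176). Nearest to Ccnd2 were P4htm (0.0438), the small GTPase gene Rhoa (0.0475) and the autophagy gene Atg7 (0.0479; median 0.145). These profiles share the same arrays, the 2 that stand apart included.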

How the data were processed

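RNA of 12 samples of cultured neurons (6 groups of 2) was measured on Affymetrix whole-transcript arrays. The deposited values are log2 levels of 41345 probe sets, rounded to 2 decimals, made by the authors with RMA in Affymetrix Expression Console, as the submitters' processing notes have it; no source used here gives versions, settings or a genome build. RMA keeps no counts, so depth is unknown and the number of arrays limits the precision. Of the probe sets, 23521 had 1 gene symbol in the platform annotation, 1814 several and 16010 none; all 10 members matched GRCm38 by gene number. Where a gene had several probe sets, that with the highest mean stood for it, and genes were kept above the 30th percentile of all probe sets (log2 5.72).

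All 12 arrays entered 1 model of the 6 groups with lmFit and eBayes (limma 3.58.1 in R 4.3.3; 6 residual and 3.86 prior degrees of freedom), tested on simulated data, with two-sided tests, 95% intervals and Benjamini-Hochberg adjustment over 17467 genes. The members and gene lists were chosen with earlier results of these data known. Named list genes are those called and otherwise up to 2 of lowest p for each list and drug; marker genes named are examples of those called. The alternatives are given in the closing section; the counts of called markers under them, and list genes, markers and drug pairs without 2 arrays, were added after seeing the data. Promoters come from RefSeq. Figures were drawn with matplotlib 3.10.9.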

Additional observations from a re-analysis of the deposited data

How the results depend on the processing

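The direction of Cdkn2c against control held under 22 alternatives for amitriptyline, citalopram, imipramine and mirtazapine. This says little, because most alternatives leave the difference itself unchanged. Leaving out 1 array could not turn it either, as both arrays of each of these drugs lay below both controls. With array weights, members called rose from 0 to 1 (Cdkn2c) under amitriptyline (1.27% of all genes called) and for the mean of the drugs (1.04%). Under mirtazapine 1 (Cdkn2c) was called with a 50th percentile filter (3.27%) and 2 with a trended, robust variance (2.52%). Other calls of members came only from fits that leave a group of 1 array, with its spread taken wholly from the other groups. Without both arrays that stand apart, Cdkn2c was called in this way under amitriptyline, under mirtazapine and for the mean of the drugs. Leaving out 1 array gave such calls under duloxetine, under mirtazapine, for the mean of the drugs and in the F test over 6 groups. They also arose for amitriptyline against duloxetine (Ccnd3) and for duloxetine against mirtazapine. The arrays left out in these fits were both of duloxetine and mirtazapine replicate 1. The other 11 comparisons kept 0. The cause was not tested.

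Signs turned for 21 of the 50 member differences, all uncalled. Without both arrays that stand apart, duloxetine differences became −0.06 (Ccnd1), −0.07 (Ccnd3), 0.045 (Cdk4), 0.115 (Cdk6), 0.095 (Cdkn1c) and 0.02 (Cdkn2c), and Ccnd3 under mirtazapine −0.16. Quantile normalized again, Cdkn1a under duloxetine was 0.00708. Without 1 array each, ranges under duloxetine were −0.11 to 0.13 (Ccnd1), −0.07 to 0.41 (Ccnd3), −0.215 to 0.045 (Cdk4), −0.445 to 0.115 (Cdk6), −0.135 to 0.185 (Cdkn1b), −0.305 to 0.095 (Cdkn1c), −0.60 to 0.02 (Cdkn2c) and −0.01 to 0.19 (Mdm2). Under amitriptyline they were −0.055 to 0.015 (Cdk4), −0.355 to 0.045 (Cdk6), −0.075 to 0.195 (Cdkn1c) and −0.01 to 0.13 (Mdm2), and under citalopram −0.005 to 0.035 (Ccnd2) and −0.025 to 0.055 (Cdkn1c). Under imipramine they were −0.06 to 0.02 (Ccnd2), −0.12 to 0.03 (Ccnd3), −0.125 to 0.025 (Cdk4) and −0.035 to 0.115 (Cdkn1b), and under mirtazapine −0.16 to 0.17 (Ccnd3) and −0.07 to 0.15 (Mdm2).

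Calls over all genes under mirtazapine (304) ranged from 0 (without control replicate 1) to 1450 (without mirtazapine replicate 1), and were 191 without a filter, 110 with array weights and 14 from the 4 arrays compared. Under imipramine (5) they ranged from 0 to 128 over the alternatives, highest with array weights. They also rose without both arrays that stand apart, neither of which is an imipramine array. With the replicate number as a block (replicate block), 0 members were called in every comparison, and calls over all genes were 234 under mirtazapine and 3 under imipramine. Same-numbered arrays did not deviate together in most pairs of groups. The replicate differences correlated from −0.438 to 0.712 between groups, over 0.1 in 4 of 15 pairs. The highest, 0.712, was that of duloxetine and mirtazapine, the groups that hold the arrays that stand apart. The others over 0.1 were among amitriptyline, citalopram and imipramine, at 0.125 to 0.196. The numbers thus do not pair the arrays across all groups, and whether they pair those of some groups was not tested.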
